A study of Mus musculus with 6 samples.

Results

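The proteasome genes of mouse bone marrow derived macrophages were examined, taken as every gene whose name begins with Psm, a letter from a to g and a number. There were 50 such genes among the 16519 in the table of read counts, and all 50 passed the low-count filter that left 12605 genes for testing. RNA was sequenced from macrophages grown from bone marrow of mice with both Trmt61a alleles floxed and the LysM-Cre transgene (KO, 3 libraries) and of mice with both alleles floxed and no Cre (WT, 3 libraries). Trmt61a codes for the catalytic chain of a methyltransferase that makes N1-methyladenosine in tRNA, and LysM-Cre is a recombinase inserted in the lysozyme gene Lyz2 that deletes floxed sequence in myeloid cells. Only KO mice carried Cre, so effects of Cre and of Trmt61a loss cannot be told apart. The sources used here state neither the age of the mice nor a stimulus, nor whether replicates are separate animals, so p-values reflect only the library-to-library spread, part of which could be technical.

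The proteasome is the protease that degrades proteins tagged with ubiquitin. Its 20S core is a stack of alpha and beta rings, with the proteolytic sites on the beta subunits beta1, beta2 and beta5, encoded by Psmb6, Psmb7 and Psmb5. Interferon gamma induces Psmb9, Psmb10 and Psmb8, whose products beta1i, beta2i and beta5i replace those constitutive subunits in newly assembled particles called immunoproteasomes, and it induces Psme1 and Psme2, which encode the PA28 alpha and beta chains of a cap that opens the core. Immunoproteasomes favour peptides that fit MHC class I molecules, and myeloid cells express them also at rest. Of the 50 genes, 47 encode a core subunit, a subunit of the 19S regulatory cap, an activator, an inhibitor or an assembly factor. Psma8 among them encodes a testis form of an alpha subunit. The other names that match are Psmc3ip, a recombination factor, Psme3ip1, a binding partner of PA28 gamma, and Psme2b, a copy of Psme2.

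The region before the start of the genes compared most closely here is shown for the constitutive and inducible members of the beta5 position and for the inducible beta1 member, so that their letters can be set beside their levels. Each is the 250 bases upstream of the RefSeq start on the gene's own strand (GRCm38.p6, the assembly of mm10). Psmb5 is at chr14:54617996-54618245 (minus strand), Psmb8 at chr17:34197945-34198194 (plus) and Psmb9 at chr17:34187331-34187580 (minus). Capitals mark matches to the motifs named after the sequences.
Psmb5: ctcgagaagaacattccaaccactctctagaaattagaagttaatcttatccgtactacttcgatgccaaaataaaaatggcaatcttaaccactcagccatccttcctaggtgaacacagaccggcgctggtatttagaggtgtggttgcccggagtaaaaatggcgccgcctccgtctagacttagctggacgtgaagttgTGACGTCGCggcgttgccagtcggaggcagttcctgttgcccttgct
Psmb8: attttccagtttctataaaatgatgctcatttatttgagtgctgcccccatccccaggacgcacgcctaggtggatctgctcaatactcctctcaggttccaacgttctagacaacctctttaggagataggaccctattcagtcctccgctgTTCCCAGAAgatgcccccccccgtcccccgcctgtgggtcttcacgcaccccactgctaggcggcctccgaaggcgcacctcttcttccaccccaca
Psmb9: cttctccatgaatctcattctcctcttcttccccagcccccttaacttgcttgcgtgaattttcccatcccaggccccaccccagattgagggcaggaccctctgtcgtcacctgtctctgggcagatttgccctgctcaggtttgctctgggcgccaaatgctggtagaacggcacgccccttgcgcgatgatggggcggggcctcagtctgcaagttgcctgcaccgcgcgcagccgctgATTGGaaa

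Windows from 250 bases before to 50 after the start were found for 42 of the 50 genes and searched on both strands for the antioxidant response element TGACNNNGC, the interferon gamma activated site TTCNNNGAA, the core of the interferon-stimulated response element (GAAA, any 2 bases, GAAA), the CCAAT box and the NF-kB consensus. The antioxidant response element, to which Nfe2l1 binds, matched at positions -47 to -39 of Psmb5 and, for Psmb6, at -9 to -1 of a start that lies inside the gene's outermost annotated bounds, and in 6 of the 42 genes against 12.4% of all 32851 windows. The gamma activated site matched at -97 to -89 of Psmb8 and in 3 of 42 genes, against 8.30% of windows. The interferon-stimulated response element matched within Psme1 on the opposite strand, at positions 10 to 19, where the gene's own strand reads TTTCGCTTTC, and in 5 of 42 genes, against 3.44% of windows. In Psmb9 the match was a CCAAT box at -8 to -4, a motif found in 15 of 42 genes and 37.4% of windows. The NF-kB consensus matched in 6 of 42 genes, against 8.46% of windows, and in 0 of the catalytic and PA28 genes with a window. A gene was counted if any of its windows matched, and Psme2 had 2 windows, whereas the background is a share of single windows. The counts of genes and the shares of windows are therefore not in the same unit. A match describes letters only.

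The first question was whether proteasome transcripts differ between KO and WT. No rise or fall of any of the 50 genes passed the test. In edgeR's quasi-likelihood test 0 of 50 passed after Benjamini-Hochberg adjustment over all genes, where the background was 0.0317% (4 of 12605 genes), and 0 passed in DESeq2 or limma voom. The smallest adjusted p among them was 0.999949. At an unadjusted p under 0.05 there was 1 gene, Psmd2, against 3.10% of all tested genes. For 48 of the 50 genes the 95% interval of the difference lay within 1.5-fold in either direction, and the exceptions were the scarce Psma8 and Psmc3ip. Those 48 were the members at 5 CPM or more (counts-per-million), a level at which 92.8% of all tested genes had so narrow an interval. The median log2 fold change over the 50 genes was 0.039, with 34 above 0 and 16 below, beside a median of 8.37e-05 and 50.04% above 0 over all tested genes. Targeted Trmt61a, as a check of the labels, was at 0.530, 0.755 and 0.539 CPM in KO against 4.96, 3.89 and 5.06 in WT, and was called lower (edgeR adjusted p = 0.00219).

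**Figure D1:**
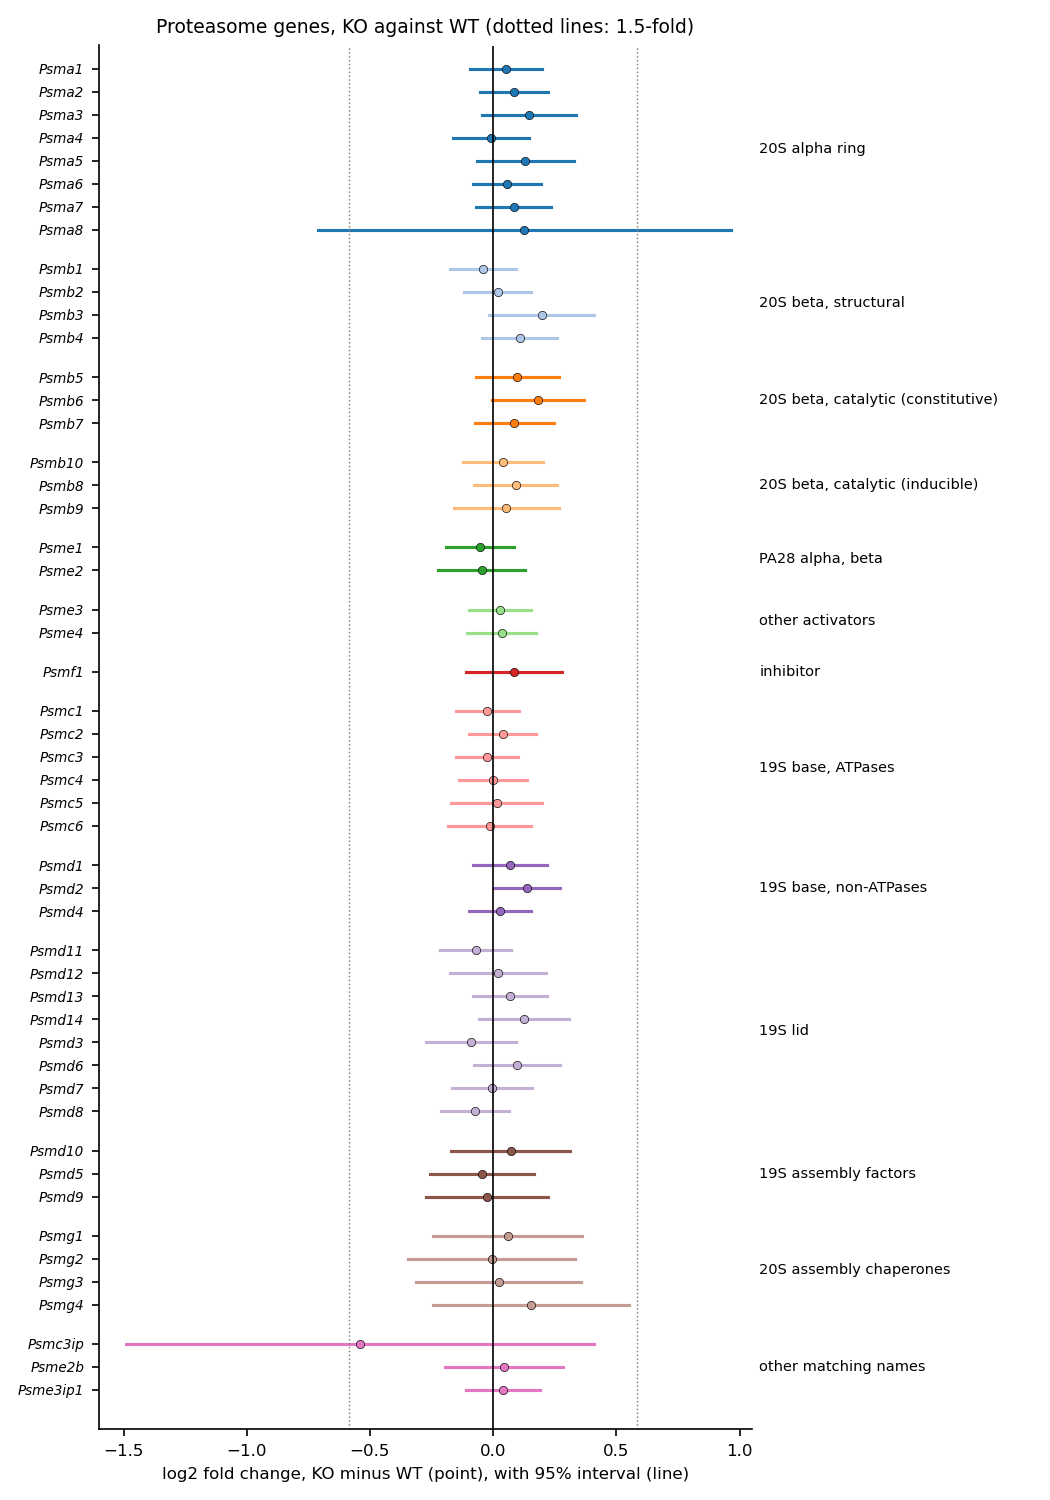
Log2 fold change of KO minus WT for each of the 50 proteasome genes (points) with its 95% interval (lines), ordered by role and coloured by group; dotted lines mark 1.5-fold. All points but that of Psmc3ip (-0.54) lie between -0.088 and 0.20, and the intervals of Psma8 and Psmc3ip alone cross a dotted line.

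The constitutive catalytic genes lay slightly higher in KO on average, with overlapping libraries. Psmb5, the gene of the beta5 subunit with chymotrypsin-like activity (chromosome 14, 54614120 to 54617995, mm10), was at 60.0, 64.3 and 69.4 CPM in KO 1 to 3 against 62.9, 55.4 and 62.7 in WT 1 to 3. KO 1 lay below WT 1 and WT 3. The log2 fold change was 0.099 with a 95% interval from -0.070 to 0.27. Psmb6, the gene of beta1 with caspase-like activity (chromosome 11, 70525324 to 70527858), was at 116, 127 and 138 CPM in KO against 112, 101 and 123 in WT. KO 3 was the highest and WT 2 the lowest, while KO 1 lay below WT 3. Its log2 fold change of 0.18, with an interval from -0.00305 to 0.37, was the largest of the catalytic genes and did not pass (edgeR unadjusted p = 0.0532). Psmb7, the gene of beta2 with trypsin-like activity (chromosome 2, 38588046 to 38643952), was at 68.7, 64.9 and 75.2 CPM in KO against 64.3, 62.9 and 69.3 in WT. Its groups overlapped as well, with a log2 fold change of 0.086 and an interval from -0.073 to 0.25. In all 3 of these genes KO 3 was the highest library and WT 2 the lowest.

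The inducible catalytic genes did not pass the test either, and their libraries overlapped. Psmb8, the beta5i gene (chromosome 17, 34198195 to 34201454), was at 51.7, 55.2 and 49.2 CPM in KO against 46.2, 47.3 and 53.0 in WT. Here KO 2 was highest, WT 1 lowest, and KO 3 lay below WT 3. The log2 fold change was 0.092 with an interval from -0.076 to 0.26, which spans a fall of 5.12% to a rise of 19.7%. Psmb9, the beta1i gene (chromosome 17, 34182030 to 34187330), was at 25.9, 25.6 and 21.5 CPM in KO against 22.6, 22.7 and 25.1 in WT. KO libraries 1 and 2 were the highest of the 6 and KO 3 was the lowest. The log2 fold change was 0.053, with an interval from -0.16 to 0.27. Psmb10, the beta2i gene (chromosome 8, 105935728 to 105938392), was at 40.7, 42.1 and 38.7 CPM in KO against 36.7, 40.0 and 41.5 in WT. WT 1 was lowest and KO 2 highest, and the log2 fold change was 0.038 with an interval from -0.12 to 0.20.

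The PA28 genes, the other inducible pair, were the only group named here besides the 19S base ATPases and 19S assembly factors with a median below 0. Psme1 (chromosome 14, 55578494 to 55581527) was at 83.8, 80.4 and 88.2 CPM in KO against 83.1, 88.7 and 89.9 in WT. KO 2 was lowest and WT 3 highest, and the log2 fold change was -0.053 with an interval from -0.19 to 0.083. Psme2 (chromosome 14, 55587440 to 55591101) was at 36.3, 36.97 and 39.0 CPM in KO against 34.9, 41.5 and 39.5 in WT. All 3 KO values lay inside the WT range, and the log2 fold change was -0.047 with an interval from -0.22 to 0.13. Summed over the 3 inducible catalytic genes, levels averaged 117 ± 6.83 CPM in KO against 112 ± 7.20 in WT (SD, n = 3). The sum of the 3 constitutive ones was 261 ± 19.3 CPM in KO against 238 ± 18.0 in WT, and that of the PA28 pair 122 ± 5.07 CPM in KO against 126 ± 6.80 in WT.

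**Figure D2:**
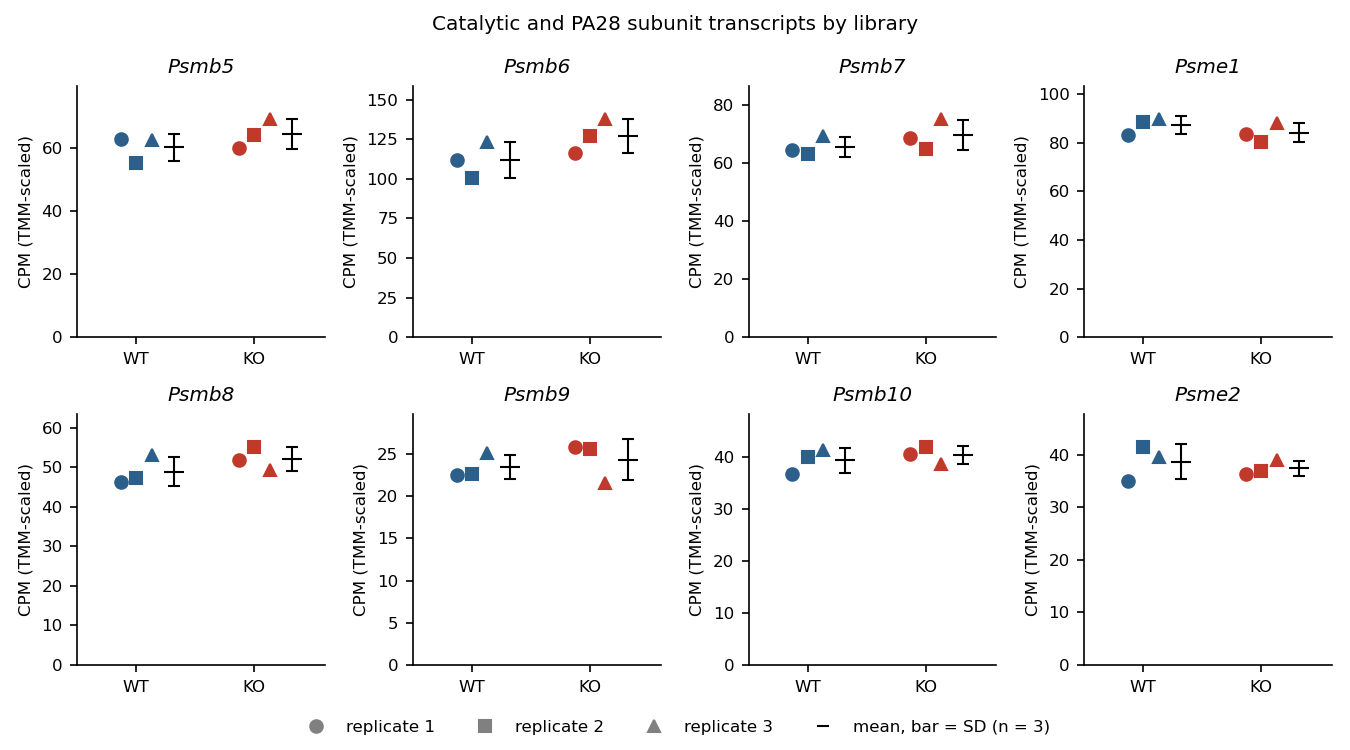
Counts-per-million in each WT (blue) and KO (red) library for the constitutive catalytic genes Psmb5, Psmb6 and Psmb7, the inducible Psmb8, Psmb9 and Psmb10, and the PA28 genes Psme1 and Psme2; symbols give the replicate number and black bars the mean and SD (n = 3), on axes that start at 0. KO and WT overlap in all 8 panels, and KO 3 is the highest library for Psmb5 (69.4), Psmb6 (138) and Psmb7 (75.2) but the lowest for Psmb9 (21.5).

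The inducible and constitutive genes of each catalytic position were then compared within each library, where the scaling between libraries cancels. The log2 ratio of Psmb8 to Psmb5 was -0.22, -0.22 and -0.50 in KO and -0.45, -0.23 and -0.24 in WT. The means were -0.31 ± 0.16 and -0.31 ± 0.12 (SD, n = 3), a difference of -0.00517, with an exact two-sided permutation p of 1.0. The low values came from KO 3 and WT 1. The log2 ratio of Psmb9 to Psmb6 was -2.17, -2.31 and -2.68 in KO and -2.31, -2.15 and -2.29 in WT. Its mean was -2.39 ± 0.26 in KO and -2.25 ± 0.085 in WT (SD, n = 3), a difference of -0.13 with an exact two-sided permutation p of 0.4. That difference came from KO 3, since without it the value was 0.013. The log2 ratio of Psmb10 to Psmb7 was -0.76, -0.63 and -0.96 in KO and -0.81, -0.65 and -0.74 in WT, a difference of -0.045 (exact two-sided permutation p = 0.8). Adjusted over these 3 ratios, each p was 1.0, and 3 against 3 libraries cannot give less than 0.1. KO 3 had the lowest of the 6 values in all 3 ratios. Irf1, a transcription factor gene of the interferon response, was also at its lowest in KO 3. It was at 65.3 CPM there and between 69.4 and 83.3 CPM elsewhere, and its part in the ratios was not tested.

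**Figure D3:**
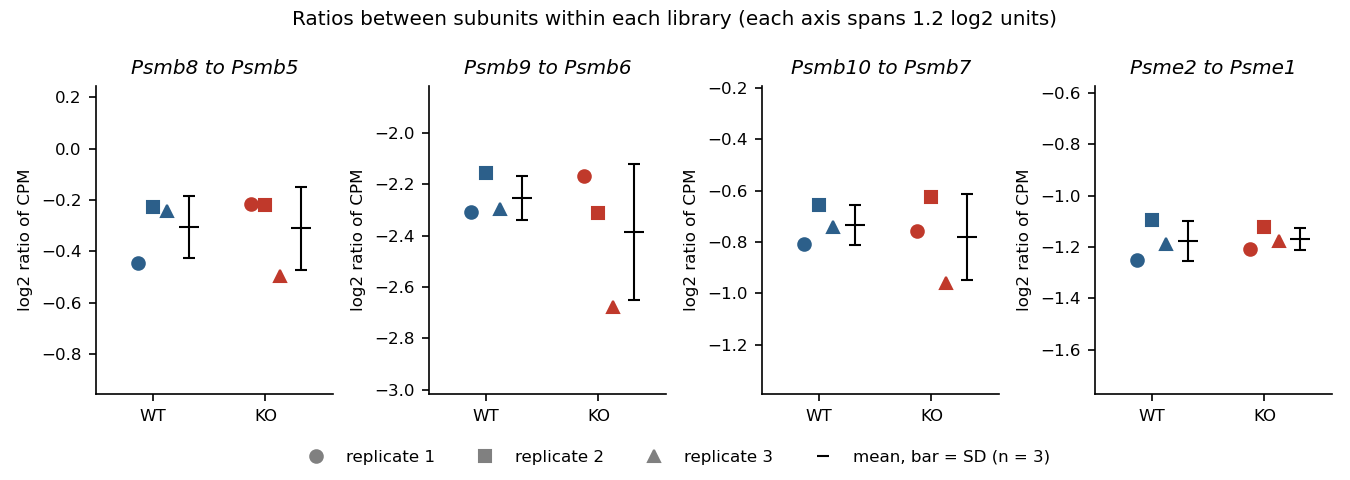
Log2 ratio of CPM between an inducible and a constitutive catalytic gene, and between Psme2 and Psme1, in each WT (blue) and KO (red) library, with the mean and SD (n = 3) in black; every axis spans the same range. KO 3 (red triangle) is the lowest point in the first 3 panels, at -0.50, -2.68 and -0.96, and KO and WT overlap in all 4.

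Per kilobase of transcript, constitutive catalytic transcripts exceeded their inducible counterparts in every library. Psmb8 stood at between 39.2% and 47.5% of the Psmb5 level, Psmb10 at between 45.5% and 57.4% of Psmb7, and Psmb9 at between 9.21% and 13.3% of Psmb6. Psmb6 had the highest level of all 50 genes, at 149.8 CPM per kilobase averaged over the genotypes. Psmb5 and Psmb7 were at 69.5 and 58.2 CPM per kilobase. Among the inducible genes Psme1 was at 77.1 CPM per kilobase, Psme2 at 39.5, Psmb8 at 31.0, Psmb10 at 30.5 and Psmb9 at 17.7, ranks 8, 20, 26, 27 and 38 of 50. These levels use the length of the longest transcript with a curated RefSeq match, and another choice of length would shift a gene's place.

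**Figure D4:**
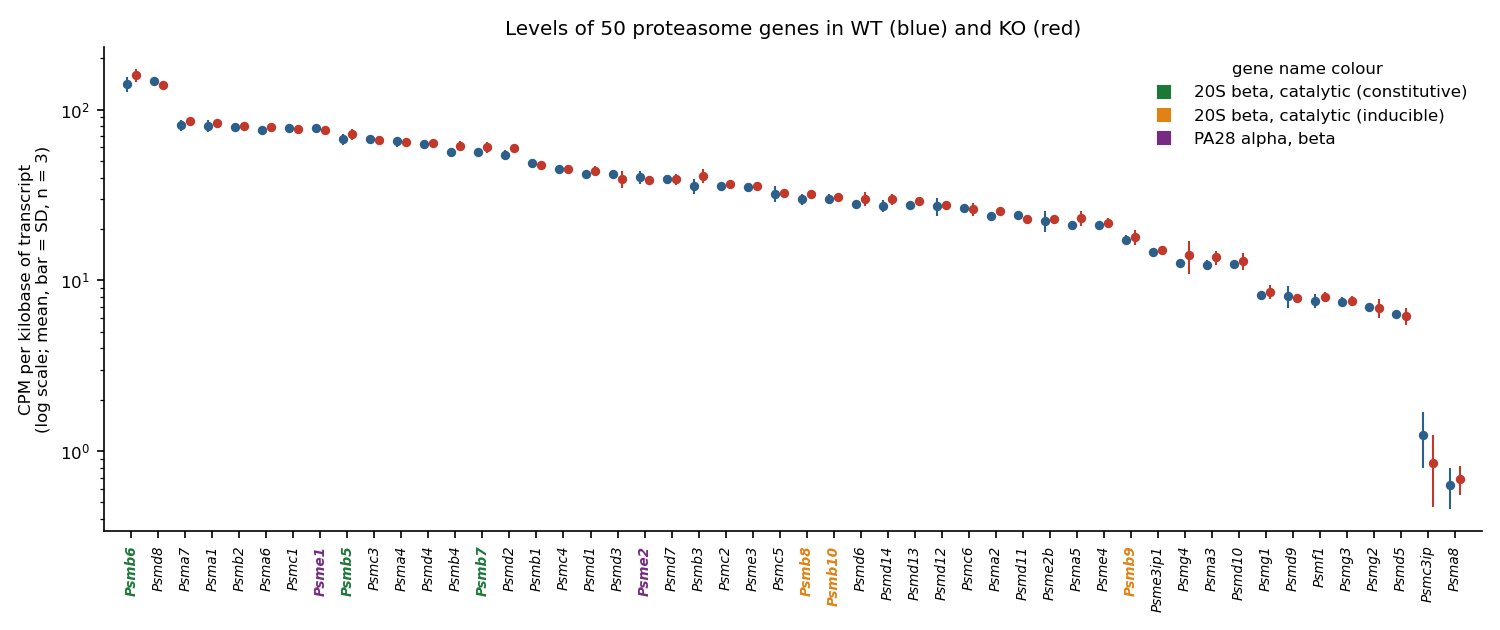
CPM per kilobase of transcript (log scale) for the 50 genes in WT (blue) and KO (red), as mean and SD (n = 3), in falling order of their mean; coloured names mark constitutive catalytic, inducible catalytic and PA28 genes. Levels fall from 149.8 for Psmb6 to 0.658 for Psma8, while the blue and red points of a gene stay close together.

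The other activators bind the same face of the core as PA28. Psme3, the gene of nuclear PA28 gamma, averaged 95.5 ± 3.94 CPM in KO against 93.6 ± 1.96 in WT (SD, n = 3), for a log2 difference of 0.029. Psme4, the gene of PA200, averaged 141 ± 9.72 CPM in KO against 137 ± 4.91 in WT (SD, n = 3), for one of 0.034. Psmf1, which encodes the inhibitor PI31, was at 30.8, 32.2 and 28.7 CPM in KO against 31.1, 29.5 and 25.9 in WT. These overlapped, with a log2 fold change of 0.086 and an interval from -0.11 to 0.28.

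In the alpha ring, which forms the gate of the core, 7 of 8 genes had values above 0 and the median log2 fold change was 0.083. Psma3 had the largest, 0.15, with 37.6, 35.9 and 42.6 CPM in KO against 32.7, 34.7 and 37.6 in WT. KO 2 lay below WT 3, so the genotypes overlapped. Psma5 had 0.13 and Psma2 0.084, and Psma4 was the gene below 0, at -0.0092. Psma8 averaged 1.16 ± 0.229 CPM in KO against 1.06 ± 0.290 in WT (SD, n = 3), on 33 to 58 counts per library, so that its interval from -0.71 to 0.96 leaves a wide range. The highest alpha gene per kilobase was Psma7, at 83.4 CPM per kilobase, and Psma8, at 0.658, was the lowest.

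Of the 4 structural beta genes, which carry no active site, 3 were above 0. Psmb3, the beta3 gene, had the largest log2 fold change of all 50, 0.20 with an interval from -0.017 to 0.41. It was at 29.8, 29.5 and 34.6 CPM in KO against 26.9, 24.8 and 30.2 in WT, so that WT 3 lay above KO 1 and KO 2. Psmb4 had 0.11, Psmb2 0.019 and Psmb1 -0.041.

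The 19S cap recognises ubiquitin chains and unfolds the substrate. Its 6 base ATPase genes, which encode the unfolding motor, lay near 0, with log2 fold changes between -0.025 (Psmc3) and 0.039 (Psmc2) and a median of -0.00706. Psmc1, the most abundant of them per kilobase, averaged 122 ± 3.60 CPM in KO against 125 ± 6.03 in WT (SD, n = 3). Psmc6, the least abundant per kilobase, had -0.014. Psmd2, the gene of the scaffold subunit Rpn1 (chromosome 16, 20651122 to 20663414), was the only one of the 50 genes whose genotypes did not overlap. It was at 173, 175 and 183 CPM in KO against 156, 154 and 172 in WT, with the closest values in KO 1 and WT 3. The difference was 0.14 (log2, SE 0.060, edgeR unadjusted p = 0.0427) and did not pass the adjustment. It was 1 of 50 with every KO library above every WT library, where the background was 4.05%, and 0 of 50 had every KO library below, where it was 4.59%. Psmd1, the Rpn2 scaffold gene, had 0.068, and Psmd4, the gene of the ubiquitin receptor Rpn10, had 0.028.

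The 8 lid genes were split evenly, 4 above and 4 below 0. Psmd14, the gene of the deubiquitinase Rpn11 that removes the ubiquitin chain, had the largest value, 0.13, with 44.1, 44.02 and 50.03 CPM in KO against 40.5, 39.9 and 46.2 in WT. WT 3 lay above KO 1 and KO 2. Psmd6 had 0.098, and Psmd8, the most abundant lid gene per kilobase (143 CPM per kilobase), had -0.075. Psmd3 had the lowest value of the lid, -0.088, with 73.5, 90.3 and 88.8 CPM in KO against 93.8, 84.1 and 90.7 in WT. KO 1 was the lowest library, and KO 2 and KO 3 lay inside the WT range. Psmd11, the least abundant per kilobase, averaged 65.3 ± 1.85 CPM in KO against 68.7 ± 3.95 in WT (SD, n = 3).

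The assembly factors whose names match the rule had lower levels per kilobase than most subunits they assemble. Pomp, a core assembly factor outside the rule, was at 39.7 CPM per kilobase, above Psmb3 (38.3), or at 12.4 when all its exons are counted in the length. The 20S chaperone genes Psmg1 to Psmg4 stood at between 6.94 (Psmg2) and 13.3 (Psmg4) CPM per kilobase, and the 19S assembly genes Psmd5, Psmd9 and Psmd10 at between 6.29 (Psmd5) and 12.7 (Psmd10). All structural and catalytic core genes other than Psma8 and Psma3 exceeded both ranges. Psmg4 was at 8.96, 8.51 and 5.83 CPM in KO against 7.26, 6.78 and 6.89 in WT. KO libraries 1 and 2 were above WT and KO 3 below it, with a log2 fold change of 0.15 and an interval from -0.24 to 0.55. Psmg1, Psmg3 and Psmg2 had 0.060, 0.022 and -0.0055, and Psmd10, Psmd9 and Psmd5 had 0.071, -0.024 and -0.045. Of the other matching names, Psme2b had 0.045 and Psme3ip1 0.038. Psmc3ip was at 0.663, 1.01 and 1.64 CPM in KO against 1.73, 0.980 and 2.12 in WT, a log2 fold change of -0.54 with an interval from -1.49 to 0.41.

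Other genes of the pathway, outside the name rule, did not pass the test either. Of 23 genes for proteasome subunits named otherwise, assembly factors, shuttle proteins, ubiquitin and regulators, 0 passed in either direction, with 17 above 0 and a median log2 fold change of 0.030. Sem1, the gene of a small lid subunit, was at 100.02, 89.3 and 91.8 CPM in KO against 77.6, 82.5 and 84.4 in WT. Every KO library lay above every WT library, with a log2 fold change of 0.20 and an interval from 0.059 to 0.34 (edgeR unadjusted p = 0.00992), and it did not pass the adjustment. In all, 3 of the 23 genes had every KO library above every WT library (Sem1, Uba1 and Akirin2, a factor for nuclear import of proteasomes), where the background was 4.05%, and 0 had every KO library below. Uba1, the ubiquitin-activating enzyme gene, was at 353.8, 355.02 and 357 CPM in KO against 334, 328 and 352 in WT, a log2 fold change of 0.073 with an interval from -0.046 to 0.19. Zfand5, a proteasome activator gene, had 0.10, with overlap. Nfe2l1, the transcription factor gene that raises proteasome transcripts when the proteasome is inhibited, averaged 214 ± 4.34 CPM in KO against 208 ± 2.54 in WT (SD, n = 3), with 0.038. Pomp, which encodes the chaperone of the maturing core, averaged 62.6 ± 6.58 CPM in KO against 62.7 ± 1.92 in WT (SD, n = 3).

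Genes that carry proteasome products to MHC class I, or regulate the inducible subunits, were also followed. Of 19 such genes 0 passed in either direction, 13 were above 0 and the median log2 fold change was 0.021. Tap1 encodes a chain of the peptide transporter and starts 225 bases from Psmb9 on the opposite strand. Tap1 was at 61.1, 68.0 and 62.1 CPM in KO against 56.8, 56.3 and 62.0 in WT, a log2 fold change of 0.13 with an interval from -0.027 to 0.28. KO 1 lay below WT 3, so the genotypes overlapped, as they did for Psmb9. Rfx5, a transcription factor gene of MHC promoters, was at 17.7, 16.8 and 19.1 CPM in KO against 19.2, 21.5 and 22.4 in WT. Its log2 fold change was -0.23 (edgeR unadjusted p = 0.0370), with no overlap but near contact of KO 3 and WT 1, and it did not pass. Ifngr2, which encodes a chain of the interferon gamma receptor, was at 184, 180.4 and 175 CPM in KO against 196, 199 and 189 in WT. Every KO library lay below every WT library, with a log2 fold change of -0.12 (edgeR unadjusted p = 0.0496), which did not pass. Rfx5 and Ifngr2 were the 2 of 19 genes with such a gap, where the background was 4.59%, and the 2 with an unadjusted p under 0.05, where it was 3.10%. Canx, a chaperone of class I molecules, had 0.079. Nlrc5, the class I transactivator gene that also acts on Psmb9, averaged 41.2 ± 2.33 CPM in KO against 39.8 ± 2.70 in WT (SD, n = 3), with 0.051.

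Some libraries stood apart over the 50 genes. Relative to each gene's mean over the 6 libraries, 9 of 50 genes were above it in WT 2, whose median deviation was -0.068 on the log2 scale, and 33 were above it in KO 3, with a median of 0.056. The medians of the other libraries were -0.018 in KO 1, 0.0089 in KO 2, -0.030 in WT 1 and 0.024 in WT 3. Over all tested genes these medians lay between 0.00148 and 0.00568. The scaling between libraries keeps them near 0, so they do not show how far other sets of 50 genes stray. Without WT 2 the median log2 fold change of the 50 genes was 0.017, with 31 above 0, and without KO 3 it was 0.023, with 29 above 0. Summed over the 50 genes, levels were lowest in WT 2 (2969.6 CPM) and highest in KO 3 (3219.9 CPM), and averaged 3143 ± 73.3 CPM in KO against 3069 ± 89.7 in WT (SD, n = 3).

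**Figure D5:**
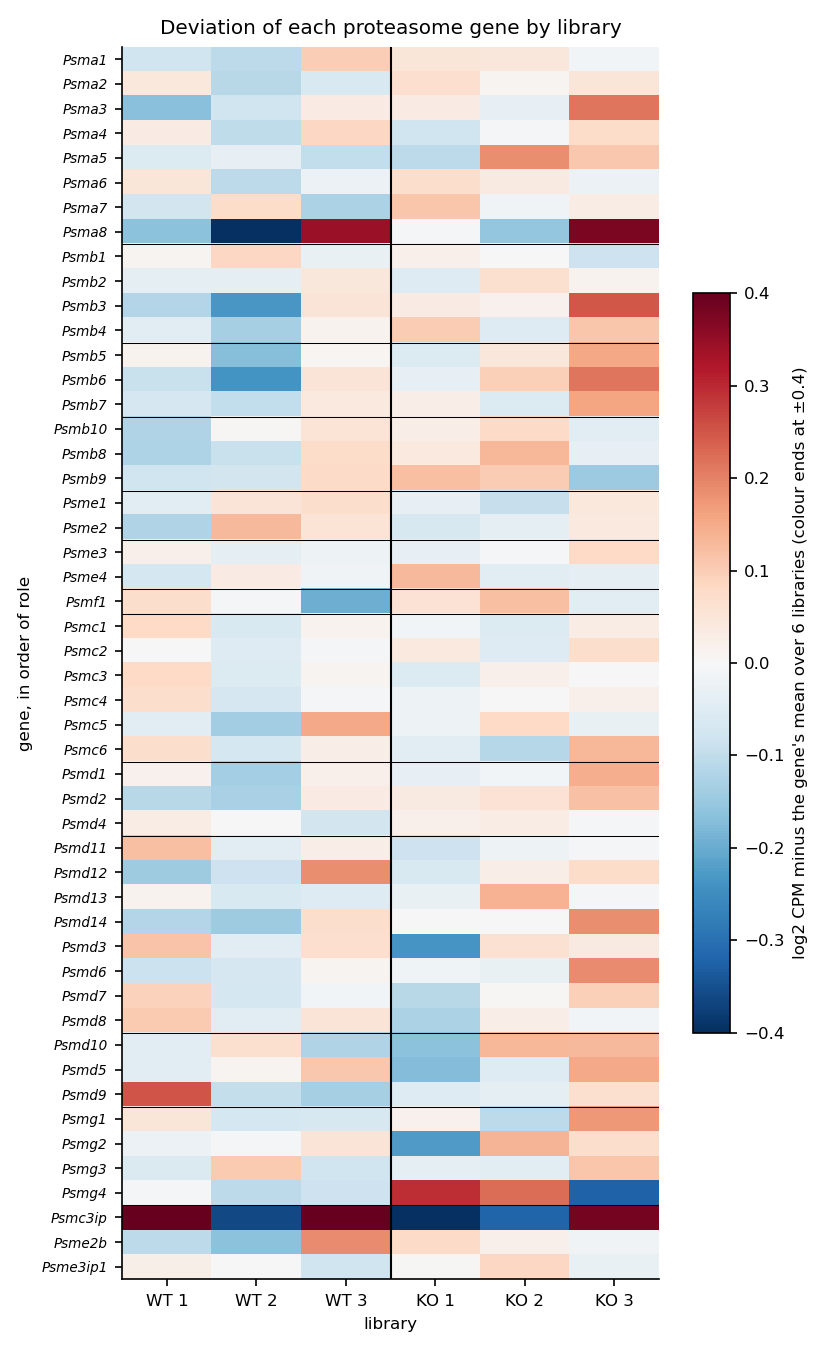
Log2 CPM of each of the 50 genes minus the gene's mean over the 6 libraries, by library (columns, WT left and KO right) and in order of role (rows, lines between groups); red is above and blue below the mean, and the colour scale ends at ±0.4. WT 2 is mostly blue (9 of 50 genes above the mean) and KO 3 mostly red (33 above), and the inducible catalytic genes depart from this in KO 3.

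Library totals lay between 37021855 and 41033179 counts, and among the 47 subunit, activator, inhibitor and assembly genes the smallest count behind a value was 33, for Psma8. The macrophage markers Csf1r, Adgre1, Cd68, Itgam, Mertk and Fcgr1 were each at 172 CPM or more in every library, and Lyz2, which carries the Cre insertion, was at 8488 to 10769 CPM in KO and 17037 to 21195 CPM in WT. In bulk RNA fewer cells of a type and less RNA per cell cannot be told apart. The 8 neutrophil markers summed to between 1607 and 2571 CPM in KO and between 1617 and 2941 CPM in WT, lowest in KO 1 and WT 2, with Ly6g at most 1.51 CPM. The 6 fibroblast markers summed to between 91.1 and 224 CPM over both genotypes and the 4 B cell markers to between 6.78 and 12.7 CPM. The 5 T and NK cell markers in the table summed to between 0.504 and 0.906 CPM in KO and between 1.22 and 1.68 CPM in WT, mostly Nkg7, with Cd3e at 0.108 CPM or less. The 4 dendritic cell markers in the table summed to at most 2.47 CPM and the 4 mast cell and basophil markers to at most 41.5 CPM, mostly Prg2. The part of these cells in the results was not tested.

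Sequence shared with other genes bears on some of these counts. Of the 50 genes, 11 share over 20% of the 50-base words of their transcript with transcripts of another gene, and 24 share none. Psme2 shares 59.3% with other genes, most with Psme2b, and Psme2b shares 69.3%, so reads of this pair could be split or dropped. Psmb5 shares 57.1%, Psma5 55.4% and Psmb3 55.8% with other genes, chiefly Gm3375, Gm8394 and AC114990.1. Psmd2, the gene without overlap of the genotypes, shares 26.4%, most with Gm5422, and Psma3 shares 22.0%, most with Gm13835. Psmb9 shares 12.5%, most with Tap1, and Psmb7 28.1%, most with Nek6, and in GENCODE both partners overlap an exon on the opposite strand. Reads of such overlaps cannot be told apart without the strand setting of the counting, not given in the sources used here.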

How the data were processed

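Per the labels' protocols, total RNA was extracted with TRIzol and libraries were made with a VAHTS Universal V6 kit. The authors deposited raw counts by gene in 1 table covering 6 libraries, and fastp, HISAT2, HTSeq and build mm10 are named in the submitters' processing notes. The notes were used without tool versions, annotation release or strand setting, not given in the sources used here. Totals ran from 37021855 to 41033179 counts, so 3 counts are between 0.0730 and 0.0813 CPM (counting error only). Replicates of a genotype differed by more than sampling noise (chi-square over genes of 11.4 to 34.2 per degree of freedom). Each library was counted once, though such a spread does not show whether the libraries come from separate animals.

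Counts were tested with edgeR 4.0.16 in R 4.3.3 (TMM, filterByExpr by genotype with minimum count 10, robust quasi-likelihood F test, KO minus WT), with Benjamini-Hochberg adjustment over 12605 genes and a threshold of 0.05. The steps were run on data simulated with a common dispersion for all genes, as a check that large changes are recovered. That run is not used here as a measure of power for small changes. CPM values use TMM-scaled library sizes. Standard errors were computed from the log2 fold change and F, with 95% intervals. Lengths came from GENCODE M21 transcripts, coordinates and promoters from RefSeq GRCm38.p6, matched by Entrez Gene ID for all 50 genes, and shared 50-base words were searched in GENCODE M21 transcripts. Cell markers, partner and class I genes came from lists, and genes were named by a rule: all catalytic, PA28, activator and inhibitor genes, up to 3 genes of smallest p per structural group with the most and least abundant, and up to 4 per further list. The members and lists were chosen with earlier results of these data known. Psmd3, Irf1, Akirin2, Nlrc5, Pomp, Nfe2l1 and genes named only with a shared word or a marker were chosen after their values were seen. Alternatives were other normalizations, filters, DESeq2 1.42.0, limma 3.58.1 voom, a non-robust fit, a replicate block and leaving out each library. Some genes of these lists are not reported here.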

Additional observations from a re-analysis of the deposited data

How the results depend on the processing

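Under all 15 alternatives 0 of the 50 genes were called, and their number at an unadjusted p under 0.05 ran from 0 to 4, beside 1 in the analysis reported. The genes called among all tested were 4 as reported, 8 with the replicate block and 16 with DESeq2. The median log2 fold change of the 50 genes stayed above 0, between 0.017 and 0.048, and was 0.039 with the replicate block. Whether the replicate numbers pair the libraries could not be decided. The deviations of same-numbered KO and WT libraries correlated at 0.032, -0.13 and 0.25, and KO 1 correlated most with WT 2 (0.30). Such correlations cannot settle it, because the deviations within a genotype sum to 0 over few libraries. Of 614 values under alternatives, for the 41 members picked by the naming rule, 593 kept their sign and 21 changed it. Each change came when a library was left out, and no call changed. Psma4 and Psmd3, named outside the rule, are not covered by these counts or by the log2 fold changes listed below. Leaving out each library in turn, the difference in log2 ratio between KO and WT ran from -0.075 to 0.088 for Psmb8 to Psmb5, -0.24 to 0.013 for Psmb9 to Psmb6 and -0.12 to 0.045 for Psmb10 to Psmb7. The log2 fold changes that crossed 0 in this way, all uncalled, ran from -0.0092 to 0.078 for Psmb10, -0.11 to 0.0051 for Psme2, -0.0050 to 0.051 for Psme3, -0.025 to 0.066 for Psme4, -0.042 to 0.37 for Psma8, -0.0081 to 0.049 for Psmb2, -0.061 to 0.0098 for Psmc3, -0.062 to 0.011 for Psmc1, -0.087 to 0.039 for Psmc6, -0.14 to 0.026 for Psmd5, -0.093 to 0.11 for Psmd9, -0.015 to 0.13 for Psmg1, -0.030 to 0.079 for Psmg3, -0.077 to 0.096 for Psmg2 and -0.026 to 0.16 for Psme2b. Counts were fewest for Psma8 and Psmc3ip, which had the widest intervals of the 50 genes.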
